A study of Mus musculus with 25 samples.

Results

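Col4a1, Col4a2, Col15a1, Col18a1, Lama2, Lama4, Lamb1, Lamc1, Nid1 and Hspg2 encode collagens, laminin chains, a nidogen and a proteoglycan of the basement membrane. These 10 genes were found by their Ensembl identifiers among the 14405 genes measured in lung or skin. The lung table holds 11867 genes and 9 of the 10, since Col15a1 was not analysed in lung, and the skin table holds 12661 genes and all 10. Bulk RNA-seq had been made from fibroblasts and macrophages sorted out of the lungs and skin of C57BL/6 mice. The depleted mice had the genotype Mrp8_CRE; Rosa26_DTR, in which Cre under the promoter of S100a8 (Mrp8), active chiefly in neutrophils, switches on a diphtheria toxin receptor. The control mice had the genotype Mrp8_WT; Rosa26_DTR, and depleted and control mice alike received diphtheria toxin intraperitoneally at 10 µg per kg for 7 days. Lung fibroblasts were sorted as CD45-, CD31-, EPCAM- and PDGFRA+, and skin fibroblasts also as CD90.1+, so leukocytes, endothelial and epithelial cells lay outside these gates. Lung interstitial macrophages were CD45+, CD68+, F4/80+, CD11c- and high in CD11b, and skin macrophages were CD45+, CD11b+, CD68+ and F4/80+. There are 3 depleted and 3 control libraries of fibroblasts and of macrophages in lung, 3 depleted and 3 control fibroblast libraries in skin, and 4 depleted and 3 control macrophage libraries in skin. The labels give no ages and do not say whether libraries of a group came from separate mice, so the p-values measure the spread between these libraries, which may be technical.

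A basement membrane is a thin sheet of matrix under epithelia and endothelia and around muscle, nerve and fat cells. Laminins, each built of an alpha, a beta and a gamma chain, assemble at the cell surface, type IV collagen forms a separate network beside them, and nidogen and perlecan connect both. Mesenchymal cells such as fibroblasts are a known source of nidogen and type IV collagen in skin and lung, whereas laminin chains also come from the epithelium.

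The values are the authors' normalised values, which within a library equal the estimated reads plus a small offset, multiplied by a constant. A gene with no reads therefore keeps a low value above 0. The lung libraries held 124075 to 385925 estimated reads and the skin libraries 6553115 to 27259903, so that 1 read was worth 2.997 to 6.81 units in lung and 0.0371 to 0.162 units in skin. Of 12 neutrophil markers, all 12 were in the lung table, where they took 0.165% to 0.194% of depleted and 0.856% to 1.75% of control macrophage libraries. In lung fibroblasts they took 0.0395% to 0.0683% of depleted and 0.0368% to 0.0519% of control libraries. In skin 8 of the 12 were in the table, and they took 0.0515% to 0.130% of depleted and 0.0693% to 0.108% of control fibroblast libraries, and 0.0152% to 0.0318% of depleted macrophage libraries and 0.0299% of control macrophage library 3. The 2 groups thus differed in these shares without overlap in lung macrophages but not in the other cells. A lung fibroblast library had reads for only 3 to 7 of the 12 markers, and a skin fibroblast library for 3 to 6 of the 8. Retnlg was at 0 reads in every fibroblast library, so the fibroblast shares rest on part of the list. Control skin macrophage libraries 1 and 5, the second of which has "MFIBRO" in its title, had a fibroblast profile. Their median correlation with the 6 skin fibroblast libraries was 0.856 and 0.885, against 0.543 and 0.517 with the other macrophage libraries, and macrophage markers took at most 0.00614% of them. Both were kept apart, so a single control library, number 3, remains for skin macrophages. Among the skin fibroblasts, depleted library 4 and control library 3 stood below the rest, with median correlations of 0.724 and 0.753 to their own cell type, against 0.883 to 0.903 for the other 4. Depleted skin macrophage library 1 had the fewest reads in skin, 6553115, and a median correlation of 0.803, against 0.866 to 0.897 for the other macrophage libraries used. In it 22.2% of genes were at 0 reads, against 4.49% to 7.39% in those.

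The members measured in each organ were higher in fibroblasts than in macrophages, with the skin comparison made in depleted mice. In lung all 9 genes were higher in fibroblasts (limma, adjusted p from 3.84e-12 to 0.000540), a call reached in that direction by 18.1% of all 11867 genes. In skin all 10 were higher in fibroblasts (limma, adjusted p from 1.14e-05 to 0.0104), against 12.7% of 12079 genes. The median difference over these genes was 4.26 in lung and 5.92 in skin on the log2 scale, beside 0.09 and 0.11 over all genes tested. Each of the 9 genes in lung and of the 10 in skin had its lowest fibroblast library above its highest macrophage library. Of all genes 9.28% did so in lung and 17.9% in skin. For Col18a1 in lung the margin was narrow, 9.72 units (2 reads) against 8.91 units (1 read). In bulk libraries a lower number of expressing cells and less RNA in each cell cannot be told apart.

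**Figure D1:**
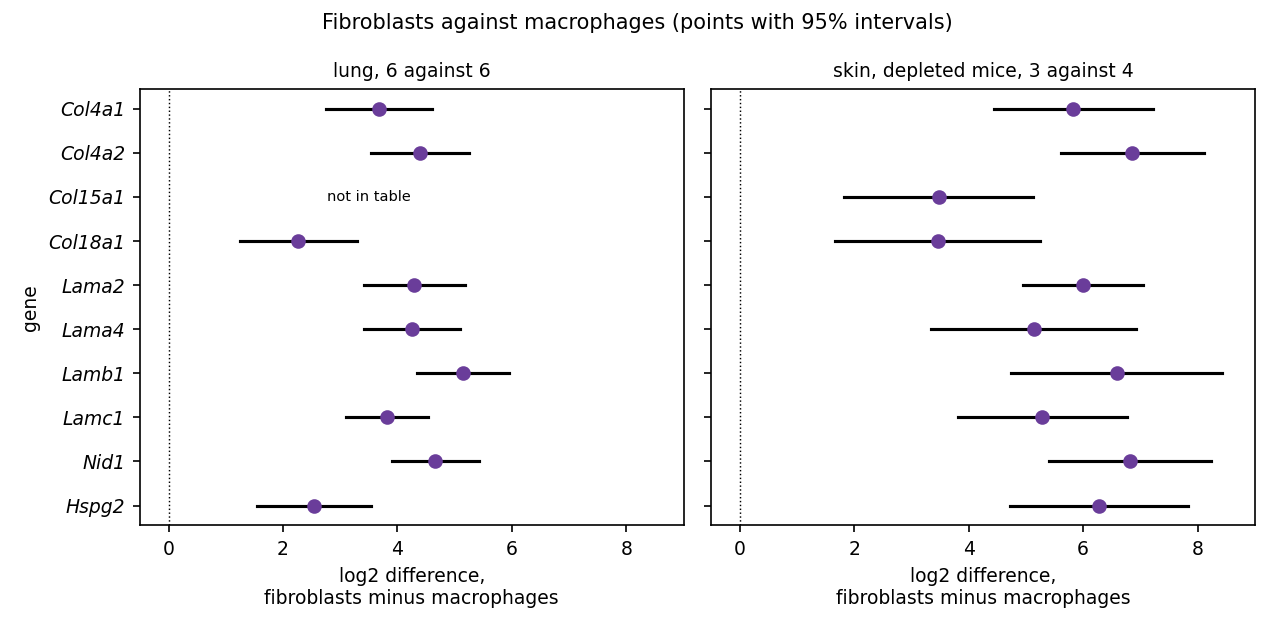
Log2 difference between fibroblasts and macrophages for each basement membrane gene, in lung (6 against 6 libraries) and in skin of depleted mice (3 against 4), as points with 95% intervals. All points lie right of 0, from 2.27 for Col18a1 to 5.14 for Lamb1 in lung, and from 3.46 for Col18a1 to 6.86 for Col4a2 in skin.

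Col4a1 and Col4a2 encode the alpha chains of the common type IV collagen trimer. The genes lie head to head on mouse chromosome 8 (GRCm38), Col4a1 at chr8:11198423-11312826 on the minus strand and Col4a2 at chr8:11312805-11449287 on the plus strand, and their annotated 5′ ends overlap by 22 bases. Col4a2 had 91.9, 87.4 and 60.4 units in depleted and 101, 95.3 and 98.0 in control lung fibroblasts. The 6 lung macrophage libraries held 1 read of Col4a2 in all, so the fibroblasts were higher by a ratio of 103 with a 95% counting interval of 18.2 to 4117. Col4a1 had 6 reads over the lung macrophages, and its ratio was 18.4 (95% counting interval 8.21 to 51.1). Both chains were thus near the detection limit in lung macrophages and well measured in lung fibroblasts.

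In skin of depleted mice Col4a2 had 199, 220 and 212 units in fibroblasts, and 0.243, 0.781, 1.03 and 1.40 in macrophages. The log2 difference was 6.86 ± 0.56 (SE), the largest of the 10 genes (limma, adjusted p = 1.57e-05). Col4a1 had 155, 185 and 132 units in those fibroblasts, and 0.404, 1.97, 4.72 and 1.40 in the macrophages, a log2 difference of 5.83 ± 0.63 (SE). The macrophage libraries varied among themselves for either chain, and none came near the fibroblasts.

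Col15a1 and Col18a1 encode the multiplexin collagens, which carry glycosaminoglycan chains and release endostatin or a fragment like it. They were the least abundant of the 10 members in skin fibroblasts and had the smallest differences between the cell types. Col18a1 (chr10:77052178-77166548, minus strand) differed by 2.27 ± 0.50 (SE, log2) in lung and 3.46 ± 0.80 in skin. The lung difference rests on 31 reads over the fibroblast libraries and 2 over the macrophage libraries. Col15a1 (chr4:47208161-47313167, plus strand) had 13, 17.1 and 39.2 units in depleted skin fibroblasts and 0.0809, 1.34, 2.17 and 0.786 in depleted skin macrophages, a log2 difference of 3.48 ± 0.74 (SE). The lowest value stands for 0 reads.

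Lamb1 and Lamc1 encode the beta1 and gamma1 chains shared by most laminins, and Lama2 and Lama4 the alpha2 and alpha4 chains, which are typical of the laminins of muscle, nerve, vessels and mesenchyme. Lamb1 (chr12:31265234-31329644, plus strand) had a difference of 5.14 ± 0.39 in lung (SE, log2; limma, adjusted p = 3.84e-12). This was the largest of the 9 genes on the log2 scale with its pseudocount, which understates weakly expressed genes. As a ratio of summed reads its 48.6 (95% counting interval 20.5 to 151) stood below those of Col4a2, Lama4 and Nid1, with intervals that overlap. Its lung values were 262, 157 and 226 units in depleted and 197, 153 and 219 in control fibroblasts, and the lung macrophages had 5 reads in all. Lamc1 (chr1:153218922-153332786, minus strand) kept the most macrophage reads of the 9 genes, 9 over the 6 lung macrophage libraries, against 185 over the 6 lung fibroblast libraries. Its differences were 3.82 ± 0.35 in lung and 5.29 ± 0.67 in skin (SE, log2).

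Lama2 (chr10:26980036-27619758, minus strand) had no read in any lung macrophage library, so that with a floor of 3 reads for the macrophages as a group, the fibroblasts were at least 29.3-fold higher. Lama2 had 57.9, 71.9 and 88.1 units in depleted and 46.4, 83.8 and 83.8 in control lung fibroblasts. Lama4 (chr10:38965515-39110188, plus strand) had 0.99 estimated reads over the lung macrophages and a ratio of 98.2 (95% counting interval 17.1 to 4042). In skin of depleted mice the log2 differences were 6.00 ± 0.47 for Lama2 and 5.14 ± 0.80 for Lama4 (SE). Counting intervals and floors cover counting error only.

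Nid1 encodes nidogen-1, which binds the laminin gamma1 chain and type IV collagen, and Hspg2 encodes the heparan sulfate proteoglycan perlecan. Nid1 (chr13:13437551-13512269, plus strand) had 375, 750 and 474 units in depleted skin fibroblasts, and 1.702, 9.78, 6.93 and 0.854 in depleted skin macrophages. The log2 difference was 6.81 ± 0.64 (SE) in skin and 4.66 ± 0.37 in lung, where the macrophages had 3 reads in all. Hspg2 (chr4:137468769-137570630, plus strand) differed by 6.28 ± 0.70 (SE, log2) in skin but by 2.54 ± 0.49 in lung, where it had only 38 reads over the 6 fibroblast libraries and 2 over the 6 macrophage libraries. The 2 organs were normalised separately, and the difference between them was not tested.

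The members were high in fibroblasts together, and the bases upstream of the first annotated exon are shown for Nid1, the highest per kilobase in skin fibroblasts, Lamb1, which shared the top with Nid1 and Lamc1 in lung fibroblasts, and for Hspg2, which holds several GC boxes. The sequences are from RefSeq (GRCm38.p6, plus strand, 5′ to 3′), and capitals mark matches on either strand to GGGCGG (the GC box), CCAAT (the CCAAT box) or TATAAA (the TATA box).
Nid1, chr13:13437352-13437550: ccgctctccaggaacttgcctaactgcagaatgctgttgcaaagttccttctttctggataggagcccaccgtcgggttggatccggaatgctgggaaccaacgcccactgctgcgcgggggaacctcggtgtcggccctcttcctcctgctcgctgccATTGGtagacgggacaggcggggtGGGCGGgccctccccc
Lamb1, chr12:31265043-31265233: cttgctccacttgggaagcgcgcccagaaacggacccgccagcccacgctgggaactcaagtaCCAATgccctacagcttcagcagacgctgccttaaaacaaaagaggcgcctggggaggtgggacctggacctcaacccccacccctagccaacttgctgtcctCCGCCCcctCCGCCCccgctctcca
Hspg2, chr4:137468553-137468768: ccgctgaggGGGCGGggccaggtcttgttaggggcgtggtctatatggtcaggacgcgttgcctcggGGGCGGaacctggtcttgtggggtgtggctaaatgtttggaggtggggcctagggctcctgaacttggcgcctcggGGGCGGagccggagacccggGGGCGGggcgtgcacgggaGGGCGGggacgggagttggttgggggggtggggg
Nid1 has 1 GC box and 1 CCAAT box in this stretch, Lamb1 has 2 GC boxes and 1 CCAAT box, and Hspg2 has 5 GC boxes. Of 9 windows of 250 bases before a RefSeq transcript start of 8 member genes, 5 held a GC box, 5 a CCAAT box and 0 the TATA letters. The Lama2 window and 1 of the Col18a1 windows lie inside their own gene as GENCODE draws it, and the Col4a1 and Col4a2 windows each lie inside the partner gene. Over 32851 such windows of the same length these letters occurred in 32.7%, 33.8% and 12.4%. A match is a description of the letters and not of binding.

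**Figure D2:**
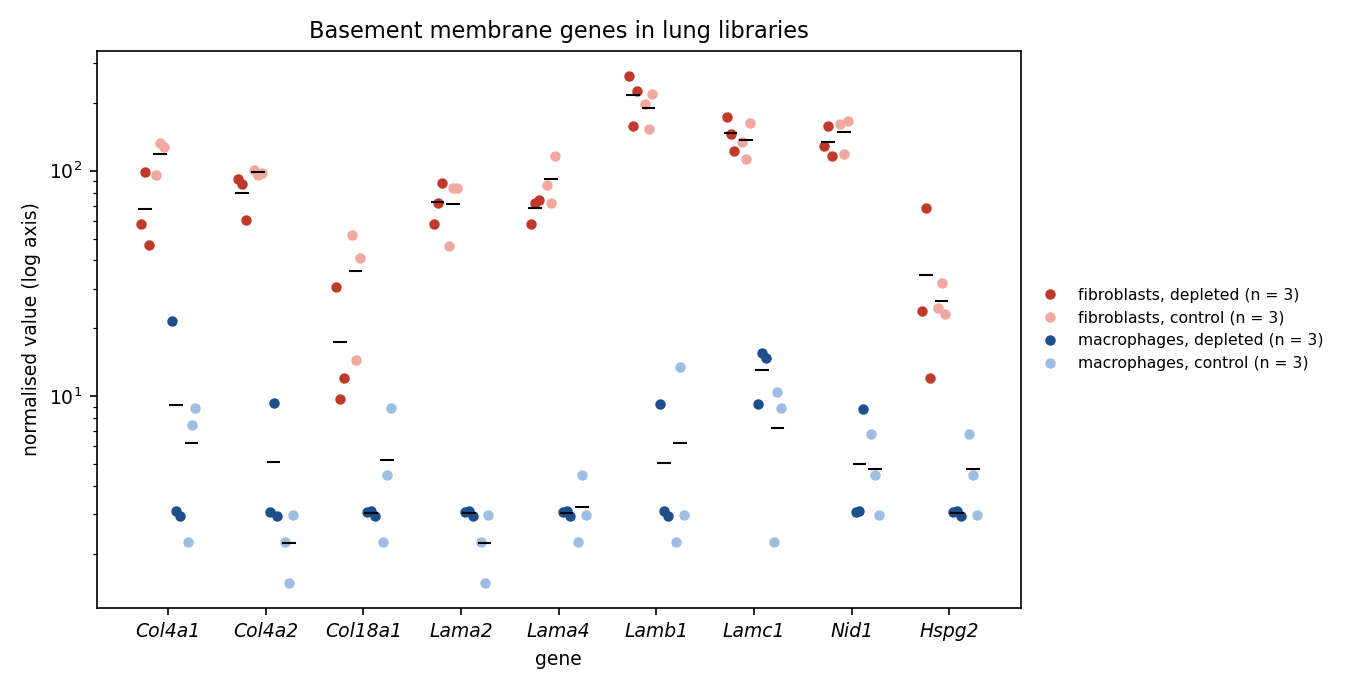
Normalised value of each basement membrane gene in the 12 lung libraries, on a log axis. Points are libraries, 3 per group, and short lines are group means. The fibroblast points lie above the macrophage points for every gene, and the lowest macrophage points stand for 0 reads.

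**Figure D3:**
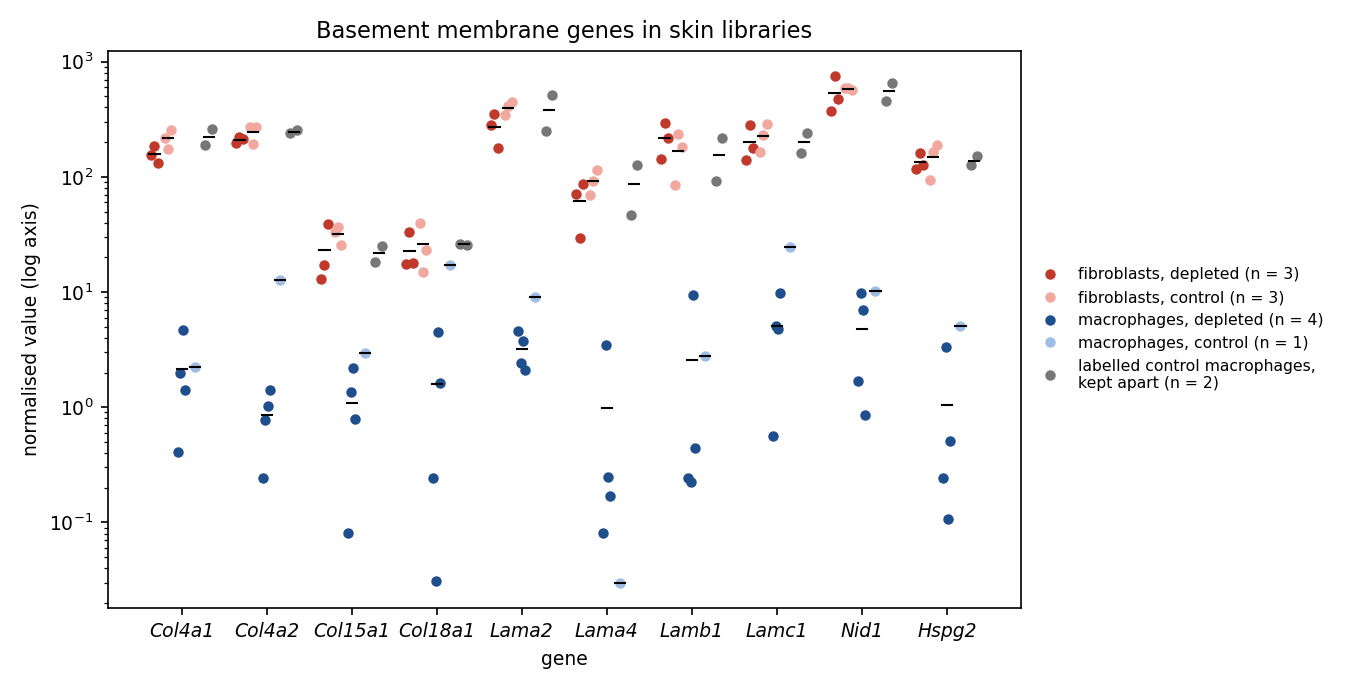
Normalised value of each basement membrane gene in the 13 skin libraries, on a log axis. Points are libraries and short lines are group means. The 2 control macrophage libraries kept apart, in grey, lie with the fibroblasts, and control macrophage library 3 lies above the depleted macrophages for 7 of the 10 genes.

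The 2 libraries kept apart carried these genes at the level of fibroblasts. Control macrophage library 1 lay inside the range of the 6 skin fibroblast libraries for 10 of 10 genes, for example with 452 units of Nid1 and 238 units of Col4a2. Library 5 lay inside it for 7 of 10, and above it for Col4a1 (260 units), Lama2 (510 units) and Lama4 (128 units). Fibroblast markers took 8.92% and 10.9% of these libraries, against 5.71% to 11% of the 6 skin fibroblast libraries.

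**Figure D4:**
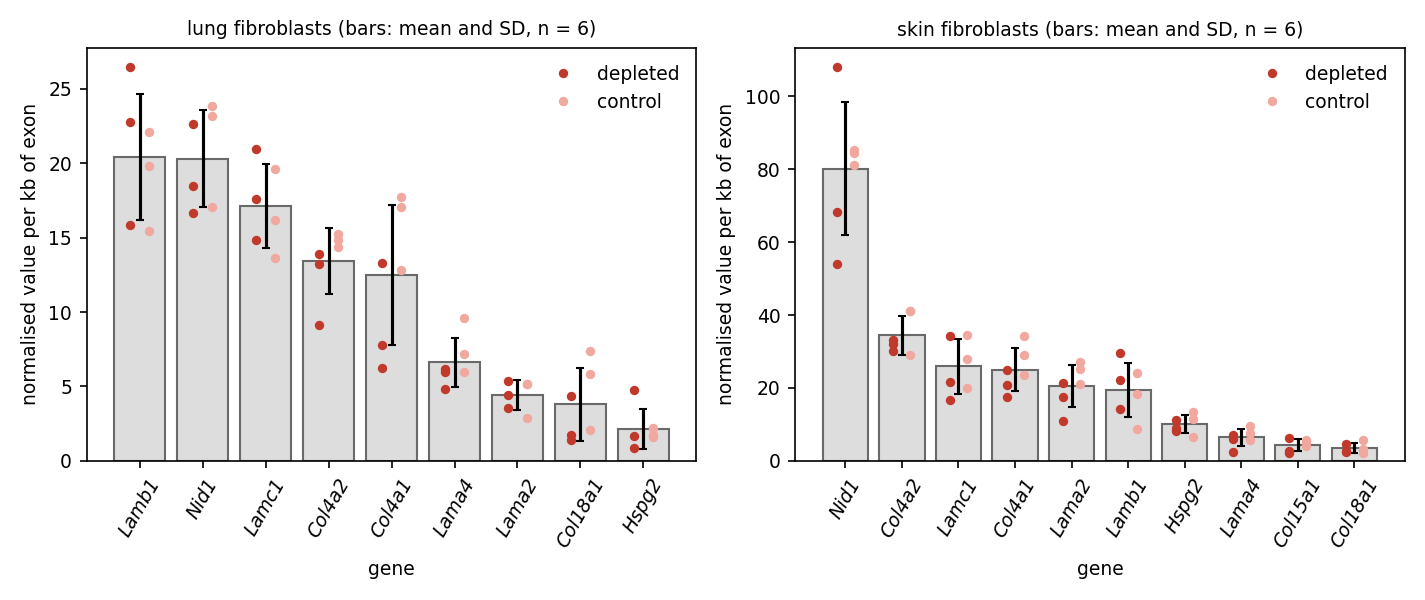
Normalised value per kilobase of merged exon length in lung and skin fibroblasts, ordered from high to low. Bars are the mean of 6 libraries with the SD, and points are the depleted and control libraries. In skin Nid1 stands clear at 80.2 ± 18.2, while in lung Lamb1, Nid1 and Lamc1 overlap at the top.

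Levels were compared between genes as normalised value per kilobase of exon. In lung fibroblasts Lamb1 was at 20.4 ± 4.26, Nid1 at 20.3 ± 3.28 and Lamc1 at 17.1 ± 2.82 units per kilobase (SD, n = 6). Below them came Col4a2 at 13.4 ± 2.23 and Col4a1 at 12.5 ± 4.71, then Lama4 at 6.61 ± 1.65, Lama2 at 4.40 ± 1.02, Col18a1 at 3.79 ± 2.47 and Hspg2 at 2.14 ± 1.36. The libraries of every pair of neighbours in this order overlapped, so the order of neighbours is not resolved, although Lamb1, Nid1 and Lamc1 all lay above Lama4, Lama2, Col18a1 and Hspg2.

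In skin fibroblasts Nid1 led with 80.2 ± 18.2 units per kilobase (SD, n = 6), and its lowest library, at 54.0, lay above the highest of Col4a2, at 41.0. Col4a2 followed at 34.4 ± 5.34, Lamc1 at 25.9 ± 7.62, Col4a1 at 25 ± 5.91, Lama2 at 20.5 ± 5.82 and Lamb1 at 19.5 ± 7.46. Hspg2 was at 9.96 ± 2.48, Lama4 at 6.39 ± 2.36, Col15a1 at 4.31 ± 1.68 and Col18a1 at 3.46 ± 1.41. From Col4a2 downwards all neighbours overlapped.

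Ratios of these per-kilobase levels within a library do not depend on how libraries were scaled. The nidogen to laminin gamma1 ratio, Nid1 over Lamc1, was 1.10 ± 0.205 in depleted and 1.30 ± 0.116 in control lung fibroblasts, and 3.17 ± 0.0390 in depleted and 3.21 ± 0.965 in control skin fibroblasts (SD, n = 3 each). The lung libraries ran between 0.880 and 1.43 and the skin libraries between 2.34 and 4.25, so the organs did not overlap. The laminin alpha chains differed in their balance too, with Lama4 over Lama2 at 1.28 ± 0.123 in depleted and 1.85 ± 0.677 in control lung fibroblasts, and at 0.369 ± 0.273 in depleted and 0.309 ± 0.0373 in control skin fibroblasts. Every lung library was above 1 and every skin library below it. These differences between organs were not tested, and organ, depth and sorting gate cannot be told apart in them.

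The beta1 and gamma1 laminin chains stood near each other in lung, with Lamb1 over Lamc1 at 1.23 ± 0.320 in depleted and 1.16 ± 0.0556 in control lung fibroblasts (SD, n = 3 each). In skin the ratio was 0.912 ± 0.0938 in depleted and 0.605 ± 0.222 in control fibroblasts, with overlapping libraries. Col4a1 over Col4a2 was 0.749 ± 0.230 in depleted and 1.07 ± 0.208 in control lung fibroblasts, and 0.664 ± 0.101 in depleted and 0.782 ± 0.0681 in control skin fibroblasts. The libraries of both conditions overlapped in either organ.

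Neutrophil depletion changed none of these genes past the threshold in either cell type of either organ. In lung fibroblasts 0 of 9 were called, beside 0.00843% of 11867 genes (1 gene, the epithelial marker Scgb1a1). By limma 1 of the 9 had an unadjusted p below 0.05, beside 5.06% of all genes. Of the 9 genes 4 had a higher and 5 a lower mean in depleted mice, with a median log2 difference of -0.14, against -0.01 over all genes.

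**Figure D5:**
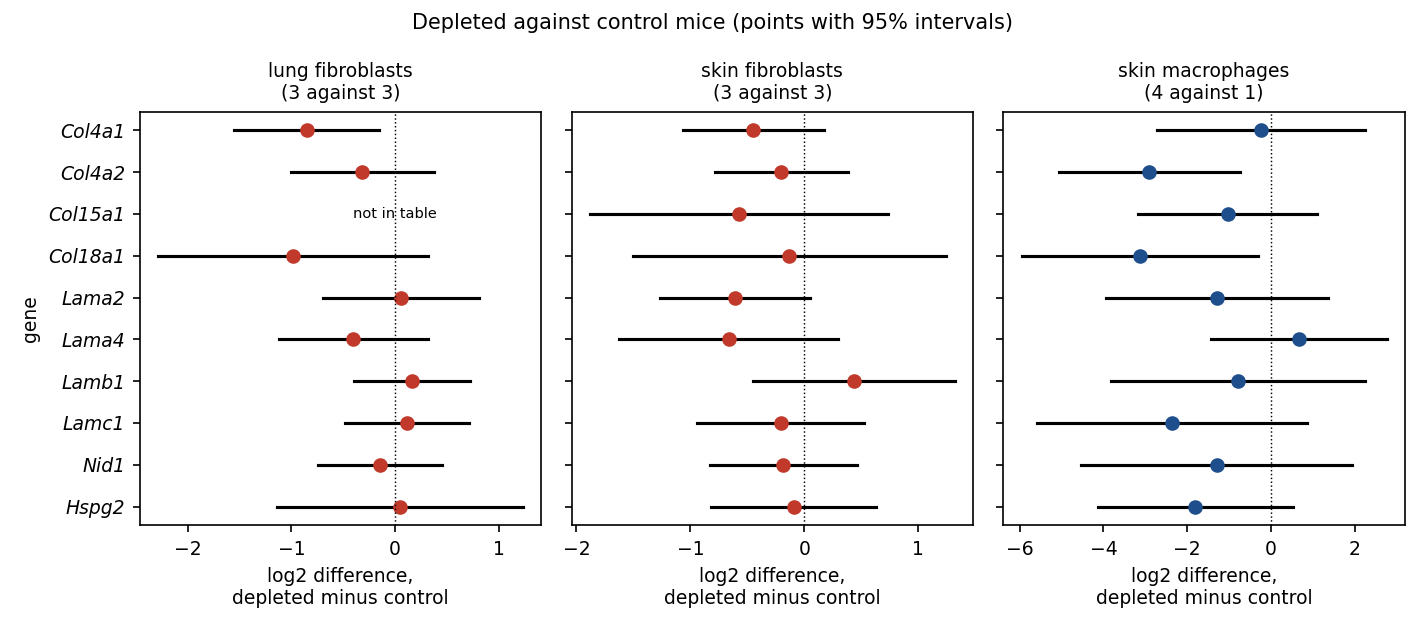
Log2 difference between depleted and control mice for each basement membrane gene in lung fibroblasts, skin fibroblasts and skin macrophages, as points with 95% intervals. The interval crosses 0 for 8 of 9 genes in lung fibroblasts, 10 of 10 in skin fibroblasts and 8 of 10 in skin macrophages, and none of the 29 differences passed the threshold after adjustment.

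Among the collagens of lung fibroblasts, Col4a1 had 57.9, 99.1 and 46.6 units in depleted and 95.5, 132 and 127 in control libraries. Depleted libraries 1 and 3 lay below all controls, and depleted library 2 lay inside them. The log2 difference was -0.85 ± 0.35 (SE; 95% interval -1.55 to -0.15; limma, unadjusted p = 0.0176, adjusted p = 0.969). For Col4a2, whose values are given above, every depleted library lay below every control library, as 4.26% of all genes did (4.94% in the other direction), with a log2 difference of -0.32 ± 0.35 (SE; adjusted p = 0.988). Col18a1 had 30.6, 9.72 and 12.1 units in depleted and 51.9, 14.4 and 41.0 in control libraries, and the groups overlapped. Its difference of -0.98 ± 0.66 (SE, log2) rests on 9 reads in all in depleted and 22 in control libraries.

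The laminin chains of lung fibroblasts overlapped between depleted and control mice. Lama4 had the lowest value among them, -0.40 ± 0.36 (SE, log2), with 57.9, 71.9 and 74.2 units in depleted and 86.4, 72.2 and 116 in control libraries. Lama2 differed by 0.06 ± 0.38, Lamb1 by 0.17 ± 0.28 and Lamc1 by 0.11 ± 0.30, and for Lamb1 the 95% interval ran between -0.39 and 0.72. Nid1 had 128, 157 and 116 units in depleted and 161, 118 and 166 in control libraries, and differed by -0.14 ± 0.30. Hspg2 had 23.8, 68.0 and 12.1 units in depleted and 24.6, 31.8 and 23.2 in control libraries, and differed by 0.05 ± 0.60 (SE, log2). For Hspg2 depleted library 2 lay above all controls, depleted library 3 below them and depleted library 1 among them. The 12 markers of the lung epithelium took 0.198% to 0.562% of depleted and 0.0568% to 0.225% of control lung fibroblast libraries, with 7 to 10 of the 12 detected in a library. Of these markers 9 had the higher mean in depleted mice, with Scgb1a1 called at 1.43 ± 0.27 (SE, log2; limma, adjusted p = 0.00671), while Epcam was at 0 reads in 5 of the 6 libraries. The part of such cells in the values of the members was not tested.

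In skin fibroblasts 0 of the 10 genes were called by limma, beside 0% of 11780 genes, and 0 of the 10 had an unadjusted p below 0.05, beside 2.4% (283 genes). Of the 10 genes, 9 had the lower mean in depleted mice, with a median log2 difference of -0.21, against 0.03 over all genes tested. None of the 10 genes separated the depleted from the control libraries. Of all genes 4.19% did so downwards and 4.28% upwards, shares at which 0 of 10 is not unusual. Fibroblast markers took 5.71% to 7.96% of depleted and 8.54% to 11% of control libraries, and keratinocyte markers took 0.140% to 1.72% of depleted and 0.311% to 0.460% of control libraries. Their part in the differences was not tested.

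Lama2 had the lowest p of the 10 in skin fibroblasts, with 284, 349 and 178 units in depleted and 344, 412 and 443.5 in control libraries. The difference was -0.61 ± 0.30 (SE, log2; 95% interval -1.26 to 0.05; limma, unadjusted p = 0.0656, adjusted p = 0.955). Only depleted library 4 reached into the control range. Lama4 had 70.9, 29.3 and 86.5 units in depleted and 69.5, 92.8 and 114 in control libraries, a difference of -0.67 ± 0.44, which was -0.20 without depleted library 4. Lamb1 was the 1 gene with a higher mean in depleted mice, with 142, 294 and 218 units against 85.0, 238 and 181 in control libraries, and its difference of 0.44 ± 0.40 was 0.01 without control library 3.

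The type IV collagen chains of skin fibroblasts lay closer together. Col4a1 had 155, 185 and 132 units in depleted and 216, 175 and 256 in control libraries, and differed by -0.45 ± 0.28 (SE, log2). Col4a2 had 199, 220 and 212 units in depleted and 271, 192 and 272 in control libraries, and differed by -0.20 ± 0.27. Control library 4 lay within the depleted range for Col4a1 and below it for Col4a2. Col15a1 had 13, 17.1 and 39.2 units in depleted and 32.9, 36.4 and 25.6 in control libraries, with depleted library 5 above every control. It differed by -0.58 ± 0.60 and Col18a1 by -0.13 ± 0.63, and these 2 genes had the widest intervals of the 10.

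Nid1 had 375, 750 and 474 units in depleted and 587, 593 and 563 in control skin fibroblasts. Its 3 controls were alike, the depleted libraries lay on either side of them, and the difference was -0.19 ± 0.30 (SE, log2). Lamc1 had 139, 284 and 179 units in depleted and 164, 232 and 286 in control libraries, and differed by -0.21 ± 0.33. Hspg2 had 117, 162 and 128 units in depleted and 94.0, 165 and 190 in control libraries, and differed by -0.09 ± 0.33. Both groups of both genes spanned much the same range. Without depleted library 4, 9 of the 10 genes still had the lower mean in depleted mice, and without control library 3 it was 8 of 10, with Col18a1 at 0.22. These 2 libraries were the pair that stood below the rest in correlation. Without depleted library 2 it was 5 of 10, so the shared direction of the 9 genes rests in part on that library.

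In skin macrophages the 4 depleted libraries had lower values of most basement membrane genes than control library 3, but with a single control library no gene was called. By limma 0 of 10 genes passed, beside 0% of 12028 genes, and 2 of 10 had an unadjusted p below 0.05, beside 6.93% (834 genes). The lone control library is assumed to vary like the depleted ones. Control library 3 lay above all 4 depleted libraries for 7 genes (Col18a1, Nid1, Lama2, Lamc1, Col15a1, Hspg2 and Col4a2), a position that 25% of all genes shared. It lay below all 4 for Lama4, as for 22.2% of all genes, although depleted library 1 also had 0 reads of Lama4 and stood higher through the larger worth of 1 read there.

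Col4a2 had 0.243, 0.781, 1.03 and 1.40 units in the depleted libraries and 12.6 in control library 3. The difference was -2.91 ± 0.94 (SE, log2; limma, unadjusted p = 0.0146, adjusted p = 0.553). Col18a1 had 0.243, 0.0312, 4.51 and 1.61 units in the depleted libraries and 17.2 in the control library, a difference of -3.14 ± 1.23 (unadjusted p = 0.0332, adjusted p = 0.659). Lamc1 had 0.566, 5.05, 4.80 and 9.74 units against 24.4. In control library 3 Col18a1 thus reached the level of the skin fibroblasts, which ran between 15.02 and 39.6 units, while Col4a2 and Lamc1 stayed well below theirs.

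Col4a1, the partner chain of Col4a2, lay closer between the groups, although that contrast was not tested. Its values were 0.404, 1.97, 4.72 and 1.40 units in the depleted libraries and 2.25 in the control library, a difference of -0.24 ± 1.08 (SE, log2). Lama4 had 0 reads in control library 3 and 60 reads over the depleted libraries, of which 55 were in library 2 and at most 3 in any other. Its difference was 0.66 ± 0.91 (SE, log2; limma, unadjusted p = 0.489). The summed value of the 10 genes above the level of 0 reads was 7.61 to 37.2 units in the depleted libraries and 86.2 in control library 3. Fibroblast markers moved in the same way, at 0.0248% to 0.118% of depleted libraries and 0.194% of control library 3, with 11 or 12 of 12 markers detected in every one of these libraries. Keratinocyte markers took 0.147% to 0.351% of depleted libraries and 0.631% of control library 3, and 10 of 12 had the lower mean in depleted mice. The part of either cell type in these values was not tested.

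Lama2 had 4.61, 2.41, 3.73 and 2.08 units in depleted skin macrophages and 9.01 in control library 3, and differed by -1.29 ± 1.16 (SE, log2). Nid1, whose depleted values are given above, had 10.2 units in control library 3, and its difference was -1.30 ± 1.41. For Nid1 the control library lay barely above depleted library 2. Hspg2 had 0.243, 3.34, 0.107 and 0.513 units in the depleted libraries and 5.08 in the control library, a difference of -1.81 ± 1.02. Col15a1 had 2.97 units in the control library and differed by -1.03 ± 0.93. Lamb1 had 2.78 units there, inside a depleted range of 0.223 to 9.34, and differed by -0.79 ± 1.32. The 95% intervals of all 5 included 0.

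With the control libraries taken as labelled, 4 against 3, all 10 genes had the lower mean in depleted skin macrophages, by log2 differences between -2.69 for Col15a1 and -5.69 for Col4a2. None was called (limma, lowest adjusted p = 0.0879, over 11716 genes of which 0% were called). Those differences rest on the 2 libraries with a fibroblast profile.

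Lung macrophages held too few reads for folds of most genes. All 9 genes together had 3 to 5 reads in a depleted library and 2 to 12.99 in a control library. None was called, beside 0.497% of 11867 genes (59 genes), and 0 of 9 had an unadjusted p below 0.05 by limma, beside 7.94%. Lamc1 had 5 reads in depleted and 4 in control libraries, a ratio of 1.83 with a 95% counting interval of 0.394 to 9.23. Lamb1 had 1 read in depleted and 4 in control libraries, a ratio of 0.366 (95% counting interval 0.00744 to 3.70). Col4a1 had 3 reads in either group, and the other 6 genes had at most 2 reads in any group. Epithelial markers took 0.919% to 2.14% of depleted and 0.203% to 0.875% of control lung macrophage libraries, and their part was not tested. Changes of these genes in lung macrophages were not detectable at this depth.

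Whether depletion acted differently on fibroblasts and macrophages was tested as the depleted minus control difference in fibroblasts minus that in macrophages. None of the genes was called in lung (0.0169% of 11867 genes, 2 genes, with 5.5% at an unadjusted p below 0.05) or in skin (0% of 12661 genes, with 4.23% at an unadjusted p below 0.05). Col4a2 had the lowest p of the members in skin, with 2.70 ± 0.71 (SE, log2; limma, unadjusted p = 0.00246, adjusted p = 0.964). Its own differences were -0.20 in fibroblasts and -2.91 in macrophages, the second of which rests on control library 3. The interaction fit shares a spread over all groups. That lone library adds nothing to it, and the spread comes in part from the fibroblasts. In lung 0 of the 9 members had an unadjusted p below 0.05 in the interaction (limma).

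Other genes of the basement membrane were set beside these members. Of all genes tested, 18.1% in lung and 12.7% in skin were called higher in fibroblasts, and the counts of each list stand beside these shares. Of 13 other chains, 7 were tested between the lung cell types, and 4 were called higher in fibroblasts: Col4a5 at 3.66 ± 0.45 (SE, log2), Lamb2 at 3.27 ± 0.45, Agrn, which encodes agrin, at 2.27 ± 0.48 and Lamc3 at 1.61 ± 0.48. In skin of depleted mice 3 of 9 were called higher in fibroblasts, namely Lamb2 at 4.22 ± 0.86, Col4a5 at 3.68 ± 0.74 and Nid2, which encodes nidogen-2, at 2.48 ± 0.64. Their median differences were 1.61 in lung and 1.77 in skin, against 4.26 and 5.92 for the members. No direct test of that gap was made.

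Of 18 proteins that associate with the sheet, 13 were tested in lung and 11 were called higher in fibroblasts. They were led by Npnt, the integrin ligand nephronectin, at 5.80 ± 0.21 (SE, log2), Fbln1 (fibulin-1) at 5.42 ± 0.39 and Sparc, a collagen-binding protein, at 4.95 ± 0.19, with Egflam, Hmcn1, Ntn1, Pxdn, Smoc2, Fbln2, Ntn4 and Frem1 between 1.52 and 3.55. In skin 9 of 12 were called higher, with Fbln2 at 5.92 ± 0.68, Fbln1 at 5.88 ± 0.71, Sparc at 5.57 ± 0.33, and Ntn1, Pxdn, Hmcn1, Hmcn2, Vwa1 and Smoc2 between 2.56 and 5.04. Pxdn encodes peroxidasin, which crosslinks type IV collagen, and it was called at 2.17 in lung and 4.998 in skin.

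Receptor genes were called in both directions. Of 20 receptor genes 12 were tested in lung, with 9 called higher and 1 lower in fibroblasts. Of all genes 18.1% were called higher in lung and 12.7% in skin, and 18.5% were called lower in lung and 11.4% in skin. Sdc2 (syndecan-2) led at 5.08 ± 0.39 (SE, log2), followed by the collagen receptor Ddr2 at 4.07 ± 0.37 and Sgce (epsilon-sarcoglycan) at 4.05 ± 0.31. Dmd, Dag1 (dystroglycan, a laminin receptor), Sgcb, Sdc4, Ddr1 and Itgb1 lay between 1.11 and 3.53. Sdc3 (syndecan-3) was the 1 lower gene, at -3.85 ± 0.44. In skin 7 of 18 were called higher, Ddr2 at 5.97 ± 0.56, Sgce at 5.25 ± 0.72, Sdc2 at 4.47 ± 0.51, Dag1 at 2.94, Sgcb at 2.47, Utrn at 2.41 and Sdc1 at 1.68, and Sdc3 was again lower, at -3.72 ± 0.87.

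None of these other genes was called between depleted and control mice in any of the 4 cell and organ groups. In lung fibroblasts the lowest p among them were those of Sgcb, at 1.63 ± 0.56 (SE, log2; limma, adjusted p = 0.954), and Pxdn, at -1.74 ± 0.77 (adjusted p = 0.969). In skin fibroblasts they were those of Agrn, at 2.97 ± 1.10, and Hmcn1, at -1.06 ± 0.51 (both adjusted p = 0.955). In skin macrophages Sgcb was at 3.86 ± 1.26 and Itga1 at 3.27 ± 1.13 (adjusted p = 0.553 and 0.587), and in lung macrophages Lamb2 was at 1.21 ± 0.53 (adjusted p = 0.518).

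Outside these lists, 5 genes followed the mean log2 level of the members most closely. Likeness was taken as the lower of the Pearson correlations over the 12 lung libraries and over 11 skin libraries, and the points share library, cell type and depth. It was 0.986 for Gpx3, 0.985 for Slit3, 0.984 for Igsf10, 0.981 for Bgn and 0.981 for Cpxm1. All 12 or 11 points fall into the 2 cell types, so these values describe the fibroblast and macrophage levels first of all.

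Markers of other cell types known to make basement membrane were measured in the fibroblast libraries. Of 12 endothelial markers, 9 were in the lung table and took 0.0247% to 0.0352% of lung fibroblast libraries, with 4 to 6 of the 9 detected in a library and Tie1 at 0 reads in 5 of the 6. In skin 6 of 12 were in the table and took 0.00172% to 0.00740% of the 6 fibroblast libraries. Of 12 pericyte and smooth muscle markers, 5 were in the lung table and took 0.00999% to 0.0204%, and 8 were in the skin table and took 0.0132% to 0.0341%. Of 8 adipocyte markers, 5 were in either table and took 0.00709% to 0.0132% of lung and 0.00313% to 0.00751% of skin fibroblast libraries. Of 8 Schwann cell markers, 2 were in the lung table and took 0.0260% to 0.0470% of lung fibroblast libraries. In skin 5 were in the table and took 0.00522% to 0.00912% of fibroblast libraries. The shares of epithelial markers in lung and of keratinocyte markers in skin, given above, reached higher than all of these. The 10 members themselves took 0.0797% to 0.115% of lung and 0.166% to 0.258% of skin fibroblast libraries, and the share of them that came from such cells was not tested.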

How the data were processed

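RNA was sequenced as single-end reads from libraries made with the Ovation Single Cell RNA-Seq System, per the labels' protocols. The authors deposited 1 table of normalised values (unit: signal) per organ, and their scaling method is not given in the sources used here. Tools in the submitters' processing notes are RSEM 1.7.1, cutadapt 1.7.1, limma 3.46 and CASAVA 1.8, beside the build mm10, with no role or order. Estimated reads were recovered by dividing each value by that of 1 read and subtracting 0.5, since a gene with no read keeps that offset. Within a tolerance of 0.01, 70.0% to 82.2% of values came out whole in lung and 27.4% to 58.0% in skin.

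The members, gene lists and tests were chosen with earlier results of these data known. Two-sided tests were run in R 4.3.3 with limma 3.58.1, using eBayes with its trend option and Benjamini-Hochberg adjustment over all genes tested, on log2 of the signal plus a pseudocount of 1.04 in lung and 1.001 in skin, which is 1 part in 1000000 of the mean library total. On this scale the differences of weakly expressed genes come out too small. Genes entered with at least 1 part in 1000000 in enough libraries to fill the smaller group. In lung this filter removed no gene, since a gene with no read keeps a value above that level. Genes were called at an adjusted p below 0.05. Depleted libraries were compared with control libraries per organ and cell type, fibroblasts with macrophages over both genotypes in lung and in depleted mice in skin, and the difference between cell types as an interaction. The fits were tested on simulated data, with changes placed only in genes with enough expected reads in the shallowest library. That test does not cover genes with few reads, such as the members in lung macrophages. Where a group had 0 reads, a fold is a bound against 3 reads over the group, and other low ratios have 95% Clopper-Pearson intervals. Gene symbols matched 11829 of 11867 lung and 12641 of 12661 skin identifiers, and positions and exon lengths are from GENCODE M21 (GRCm38). Levels per kilobase assume reads spread over whole transcripts, and reads in the 22 bases shared by Col4a1 and Col4a2 cannot be told apart. RefSeq promoter windows matched 8 of the 10 members. Named genes are all members, up to 4 genes of lowest p per list and comparison plus any called, and the 5 genes most like the members. Alternatives covered the pseudocount, filter, scaling, variance model, reads, libraries in the fit, replicate number as a block, and each library left out. Adding the control libraries to the skin cell type comparison was chosen after the data were seen.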

Additional observations from a re-analysis of the deposited data

Results flagged for a closer look

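Lama4 had 3.47 units in depleted skin macrophage library 2, while the other 3 depleted libraries had 0.0809 to 0.249. Hspg2 had 3.34 units in the same library, against 0.107 to 0.513 in the others. Lamb1 had 9.34 units in depleted skin macrophage library 3, against 0.223 to 0.444 in the others. In each case the gap to the nearest library took nearly the whole range of the group (Dixon's criterion), which was met by 3 of the 10 genes examined. For normally distributed values chance alone meets it in about 1 of 20 groups. The criterion was applied here to low values without logarithms, so that rate need not hold for them. The summed value of the 10 genes was 1601 units in control skin macrophage library 1 and 2460 in control library 5, both kept apart, against 86.2 in control library 3.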

How the results depend on the processing

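All 397 alternative values for the 19 differences between fibroblasts and macrophages kept their direction and their call. None of the 555 alternative values for the 32 depletion differences was called. The lung fits without a filter are among these and equal the main fit, since the filter removed no gene there. Also among them is the main fit read at an adjusted p below 0.10. For the differences between fibroblasts and macrophages, all called already, that setting could change neither direction nor call. The number of all genes called by limma moved, although no member was ever among them. In lung macrophages 59 genes were called, with 38 at 10 times the pseudocount, 27 with quantile normalisation, 0 without a variance trend, 18 in 1 model of 4 groups, and 11 to 70 with a library left out. In lung fibroblasts 1 gene was called, with 0 under a filter of 10 parts in 1000000, quantile normalisation, no variance trend or 1 model of 4 groups, 4 with voom, and 0 to 7 with a library left out. In skin macrophages 0 genes were called, with 62 without a filter, 2 with quantile normalisation and 1 with a robust trend. In skin fibroblasts 0 were called, and 0 to 16 with a library left out. For the lung interaction 2 were called, with 12 at 10 times the pseudocount, 1 with quantile normalisation or voom, 0 without a variance trend, 4 at an adjusted p below 0.10, and 1 to 6 with a library left out. The cause was not tested.

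Differences near 0 changed sign under some settings, none of them called. Lamb1 in lung macrophages was 0.0929 with voom, Col4a1 in skin macrophages 0.183 with quantile normalisation, and Lama4 in skin macrophages -3.50 with all control libraries as labelled. With a library left out, the log2 differences in lung macrophages ran between -0.687 and 0.564 for Col4a1 and between -0.506 and 0.605 for Lamb1. In lung fibroblasts they ran between -0.224 and 0.206 for Lama2, -0.0142 and 0.247 for Lamc1, and -0.596 and 0.602 for Hspg2. In skin macrophages they ran between -0.591 and 0.0850 for Col4a1. In skin fibroblasts they ran between -0.455 and 0.216 for Col18a1, -0.492 and 0.0222 for Lamc1, -0.462 and 0.0370 for Nid1, and -0.395 and 0.107 for Hspg2.

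Same-numbered depleted and control libraries of a cell type had correlated deviations of -0.104 to 0.063, which gave no sign that the numbers pair them. Such correlations were not taken between fibroblast and macrophage libraries of the same number. With the replicate block 4 genes were called in lung fibroblasts and 84 in skin fibroblasts, 0 of them members, while Col18a1 was 0.369 and Nid1 0.0440 in skin fibroblasts, and Lama4 was -3.99 in skin macrophages with all control libraries as labelled. In skin fibroblasts only the libraries numbered 4 and 5 had a partner of the same number. The blocked differences there rest on these libraries alone and do not stand for the whole comparison. Depth limits the lung values, where 1 read is worth 2.997 to 6.81 units.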
